A study of Gallus gallus with 2 samples.

Results

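The left flank of the DACT2-SMOC2 locus is the 690 kb stretch from 40150001 to 40840000 on chicken chromosome 3, in the coordinates of the deposited lists. Its folding was measured by low-input targeted chromatin capture (T2C) in the interzone, the band of tissue where a digit joint will form, and in the adjacent phalange. Both tissues were dissected from digit 3 of the hindlimb of White Leghorn embryos after 7.5 days of incubation, at Hamburger-Hamilton stage 32. Neither group carried a treatment or an engineered allele. Each tissue was represented by 1 library from 100 pooled specimens, so no value below has a replicate error and no comparison separates the tissue from its library.

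In T2C, cross-linked chromatin is cut by a restriction enzyme, here ApoI, nearby ends are ligated, and the products of a chosen locus are captured with baits and sequenced. Each pair of fragments in a list had therefore been joined in a ligation product or read across uncut DNA. Contacts become rarer with distance along a chromosome, and chromatin folds into domains, stretches whose fragments meet each other more often than they meet fragments beyond the domain's edges. Such edges limit which enhancers meet which promoters. SMOC2 encodes a secreted matricellular protein and DACT2 an intracellular modulator of Wnt and TGF-beta signalling. No annotation of the build of the lists was used here, so no gene is placed in the flank.

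Members were the listed pairs of non-adjacent fragments with both midpoints in the flank. The right edge had been chosen from minima of contact seen in these same libraries, so the weakness of contacts across it is described here and not tested. The flank held 1156 of the 6569 fragments of the locus. Its members were 12132 of the 94492 non-adjacent pairs listed in the interzone and 8415 of the 65117 listed in the phalange. Both lists together held 18055 different members, of which 2492 were in both. These 2492 pairs were 20.5% of the interzone members and 29.6% of the phalange members. Over the whole locus both lists together held 146631 different pairs. Sharing falls with distance, so shares by distance class are given below beside those of the locus.

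The deposited value of a pair, its signal, has no unit, and how it was normalized is not stated. Among members it ran from 9.66e-05 to 0.0870 in the interzone, with a median of 0.000279, and from 8.03e-05 to 0.176 in the phalange, with a median of 0.000286. The sequencing depth is unknown. The number of listed pairs was therefore the main measure, and summed signal a second one. Intervals given below are exact (Clopper-Pearson) 95% binomial intervals of listed among possible pairs. They hold counting error alone and take the pairs as independent.

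The fragments of the flank began at 40154660 and ended at 40840403, and 99.7% of neighbours were separated by 6 bp, the length of the ApoI site. Their median length was 386.5 bp, against 317 bp outside the flank, and there were 16.9 of them per 10 kb against 19.6 outside. Fragments of 800 bp or more made up 24.7% of the flank and 20.2% of the fragments outside it.

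Long fragments had more partners. Counting partners in the flank at 20 kb or more, fragments under 100 bp had a median of 0 in both libraries, and 138 of these 229 had none in the interzone. Fragments of 400 to 800 bp had a median of 14.5 partners for the interzone and 8.5 for the phalange, and the 81 fragments of 1600 bp or more had 24 and 18. Across the 1156 fragments, Spearman's rho of partners with length was 0.81 for the interzone and 0.82 for the phalange. Partner numbers of the libraries followed each other with a rho of 0.88, a description across fragments that share their length and bait coverage. Pairs of fragments that were both at least 800 bp long were 6.09% of the possible pairs at 20 kb or more, but 20.6% of the interzone members and 26.4% of the phalange members at that distance.

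**Figure D1:**
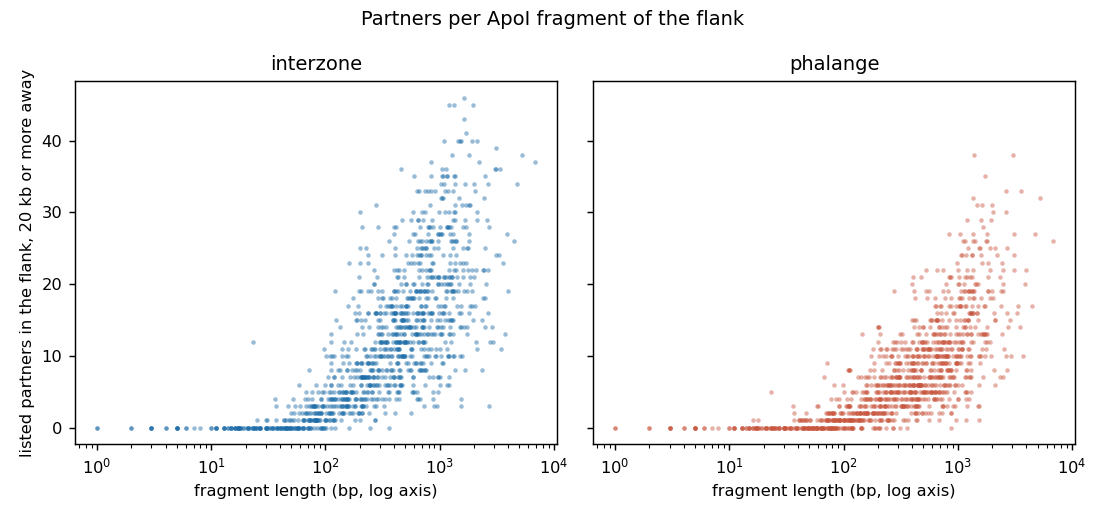
Each point is an ApoI fragment of the flank; the x axis gives its length in bp on a log scale and the y axis the number of listed partners in the flank at 20 kb or more. Partner numbers climb with length in both libraries, from medians of 0 below 100 bp to medians of 24 (interzone) and 18 (phalange) at 1600 bp or more.

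No fragment dominated the flank. The best connected interzone fragment, 40610021 to 40611661 (1641 bp), had 46 partners and 31 in the phalange, where 7 fragments had more. The best connected phalange fragment, 40337174 to 40340203 (3030 bp), had 38 partners and 36 in the interzone. All 10 fragments with the most partners, 5 per library, were 1205 bp or longer. The tenth of fragments with the most partners, 116 fragments, held 26.8% of all pair ends for the interzone and 30.8% for the phalange.

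Contacts in the flank were more frequent than the distance between fragments accounts for. The expected number of listed pairs was taken from the share of possible fragment pairs listed at the same distance in the whole locus. At 20 kb or more, 6977 pairs were listed in the interzone, 1.35 times the expected number (interval 1.32 to 1.39). In the phalange 4299 were listed, 1.43 times the expected number (1.39 to 1.47). When the expectation also matched fragment length, the ratios were 1.20 (1.18 to 1.23) and 1.23 (1.20 to 1.27). They were 1.05 in both libraries when the expectation was scaled by the totals of both 10 kb bins. Such scaling divides out anything that raises a bin's total, be it an excess shared by a whole region, fragment length or bait coverage. Their shares in the fall to 1.05 were not tested. With an expectation per 10 kb bin pair the ratios were 1.06 (interzone) and 1.11 (phalange). By summed signal the ratios were 1.24 in both libraries.

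The excess over the locus was present in each distance class compared. Below 5 kb, 33.5% of possible flank pairs were in the interzone list and 33.0% in that of the phalange, against 28.0% and 27.7% over the locus. Between 20 kb and 100 kb the listed share was 2.14% for the interzone and 1.20% for the phalange, against 1.56% and 0.833%. From 400 kb to 690 kb, which joins the ends of the flank, it was 0.501% and 0.379%, against 0.319% and 0.222%. The ratio to expectation was 1.36 for the interzone and 1.44 for the phalange at 20 to 100 kb, 1.32 and 1.36 at 100 to 200 kb, and 1.45 (1.32 to 1.58) and 1.59 (1.43 to 1.76) at 400 to 690 kb. The excess was thus present at the longest spans the flank allows, in both libraries.

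Signal was spread differently from the pairs. Members under 5 kb apart were 24.9% of the interzone members and held 76.6% of their summed signal. In the phalange they were 35.4% of the members and held 89.8% of the signal. The median signal of a flank pair was lower than that of the locus at each distance, for example 0.000246 against 0.000261 in the interzone at 20 to 100 kb and 0.000233 against 0.000250 in the phalange.

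Listing fell with distance in the flank more slowly in the phalange than in the interzone. The least-squares slope of log10 listed share on log10 distance from 20 kb to 500 kb was -0.61 in the interzone flank and -0.48 in the phalange flank. Outside the flank the slopes were -0.62 and -0.52. The difference between libraries was therefore of the same sign inside and outside the flank, and it cannot be set against a replicate spread. At 20 to 30 kb, 3.69% of possible flank pairs were in the interzone list and 1.74% in that of the phalange, and at 300 to 310 kb the shares were 0.715% and 0.418%.

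**Figure D2:**
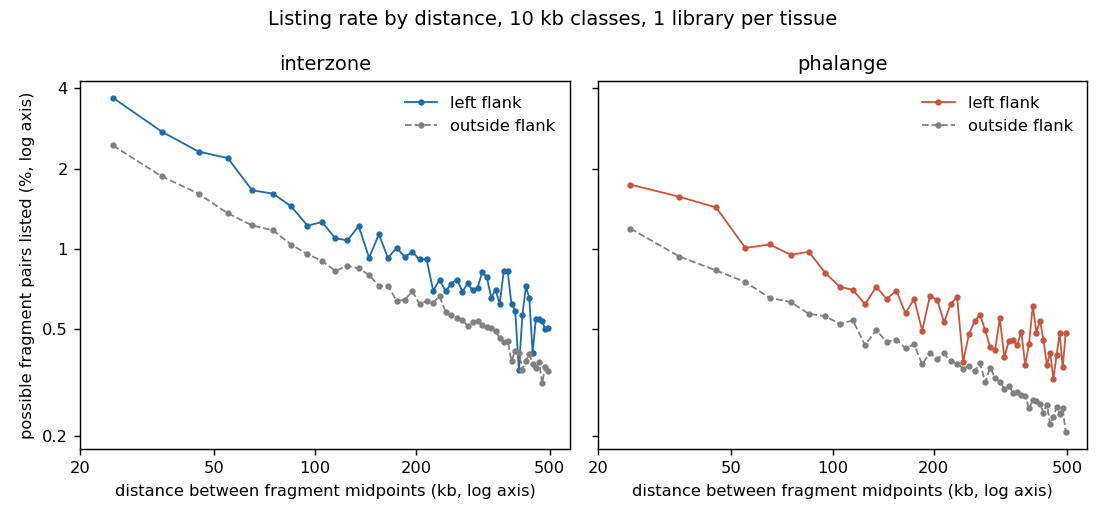
Share of possible fragment pairs that were listed (percent, log axis) against distance (kb, log axis) in 10 kb classes from 20 to 500 kb, for pairs in the flank (solid, coloured) and pairs outside it (dashed, grey). The flank curve lies above the grey curve in 47 of 48 classes in the interzone and in all 48 in the phalange, 3.69% against 2.45% in the interzone and 1.74% against 1.19% in the phalange at 20 to 30 kb.

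The same pairs of fragments were seldom listed in both libraries once they were far apart. The interzone list also held 69.1% of the phalange members below 5 kb, 6.34% of those 20 to 100 kb apart and 2.13% of those 400 to 690 kb apart. For all phalange pairs of the locus in the same distance classes, the shares were 66.4%, 5.60% and 1.47%. At 20 kb or more, 183 members were in both lists, which is 2.62% of the interzone members and 4.26% of the phalange members. Over the whole locus the shares at 20 kb or more were 1.49% and 2.33%, but these include pairs farther apart than the flank allows. The longest member in both lists joined 40225705 to 40227743 with 40824303 to 40827865, 599 kb apart, with a signal of 0.000216 for the interzone and 0.000214 for the phalange. The highest interzone signal at 20 kb or more, 0.00901, joined a 66 bp fragment at 40377250 with a fragment at 40811846. Of the 10 highest, 5 per library, none was listed in the other library. With shares of 2.62% and 4.26% among all members at that distance, 10 pairs are too few to show a lack of sharing. All 10 had at least 1 fragment of 215 bp or less. Short fragments were common: of the 1156 in the flank, 229 were under 100 bp and 150 were 100 to 200 bp. They were less common in listed pairs. At 20 kb or more, 1086 of 6977 interzone members and 553 of 4299 phalange members had a fragment under 200 bp. The highest signals thus held short fragments more often than the listed pairs did.

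Summed into 30 kb bins, the flank showed a similar uneven texture in both libraries, in part shared with fragment length. Each of its 23 bins met the flank, the bin itself included, more often than distance accounts for. The ratios were 1.05 to 1.73 for the interzone and 1.08 to 2.07 for the phalange. The bin from 40210001 to 40240000 was the highest in both, at 1.73 and 2.07, followed by 40600001 to 40630000 at 1.72 and 2.06. Both were poor in fragments, with 35 and 33, and their fragments were long, with medians of 565 and 499 bp. Matched for fragment length they stayed among the higher bins, at 1.28 and 1.45 for the first and 1.34 and 1.43 for the second. The highest bin then differed between the libraries. It was that from 40420001 in the interzone (1.37, and 1.33 in the phalange). In the phalange it was that from 40750001 (1.47, and 1.17 in the interzone). The bins from 40360001 (1.07 and 1.12) and 40690001 (1.17 and 1.08), with short fragments of median 273 and 256 bp, were low in both. The bin from 40810001 was also low in both (1.17 and 1.20), with a longer median of 448 bp. The interzone's lowest bin was that from 40630001, at 1.05 and a median of 302 bp, and it had 1.25 in the phalange. Across the 23 bins Spearman's rho of the ratio with median fragment length was 0.67 for the interzone and 0.73 for the phalange. After length matching it was 0.07 and 0.30, 22 of 23 bins stayed above 1 in each library, and the rho between libraries was 0.73 (0.89 before). These are descriptions across bins that share fragments and baits.

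**Figure D3:**
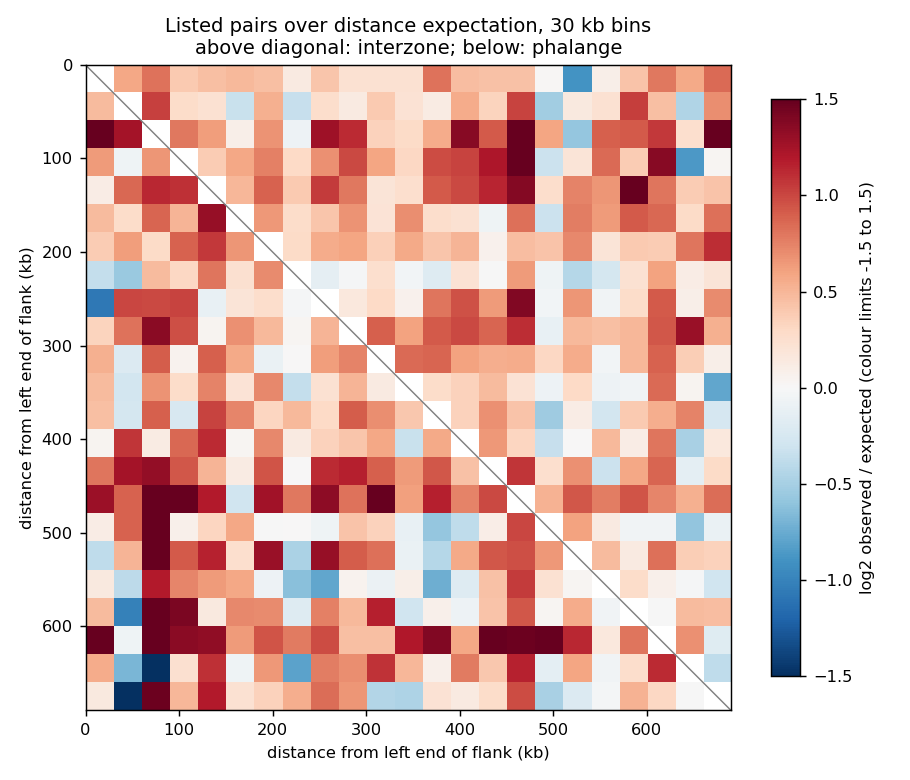
Listed pairs at 20 kb or more over the number expected from distance, in 30 kb bins of the flank, as log2 (red above expectation, blue below), with the interzone above the diagonal and the phalange below it; both axes give kb from the left end of the flank. Red cells outnumber blue ones on both sides, and 182 of the 253 pairs of different bins are above expectation in both libraries.

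Across the 253 pairs of different bins, the ratio to expectation was above 1 in 210 for the interzone and 204 for the phalange, and in both for 182. It was below 1 in both for 21. Spearman's rho between the libraries was 0.49, and 0.34 after matching for fragment length. These bin pairs share fragments, so the values describe the maps.

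The strongest longer contacts were named among bin pairs at least 90 kb apart with at least 10 expected pairs, of which there were 156 for the interzone and 90 for the phalange. In the interzone the highest joined 40390001 to 40420000 with 40600001 to 40630000, 210 kb apart. It held 35 pairs in the interzone, 2.62 times the expected number (1.83 to 3.63), and 21 pairs in the phalange, 2.53 times (1.57 to 3.86). It was thus high in both libraries, and matched for length the ratios were 2.09 and 1.86. The next joined 40210001 to 40240000 with 40540001 to 40570000, 330 kb apart, and was 2.57 in the interzone (1.75 to 3.64) with 31 pairs but 1.09 in the phalange (0.472 to 2.15) with 8 pairs. The other 3 of the interzone's 5 ranged from 2.32 to 2.45 there, and from 1.62 to 1.98 in the phalange.

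In the phalange the highest joined 40630001 to 40660000 with 40750001 to 40780000, 120 kb apart. It held 37 pairs there, 2.90 times the expected number (2.05 to 3.99), and 21 pairs in the interzone, 0.961 times (0.596 to 1.47). The second joined 40390001 to 40420000 with 40660001 to 40690000, at 2.47 in the phalange (26 pairs) and 1.58 in the interzone (25 pairs). The other 3 of the phalange's 5 ranged from 2.19 to 2.24 in the phalange and from 1.34 to 1.84 in the interzone. Matched for length, the highest was 2.45 in the phalange and 0.841 in the interzone, and the second 2.28 and 1.45. The other 3 were then between 1.49 and 1.66 in the phalange. Among them 40510001 to 40540000 with 40600001 to 40630000 went from 2.24 to 1.49 there and from 1.34 to 1.01 in the interzone. The bin from 40390001 to 40420000 thus took part in the strongest interzone contact and in the second of the phalange, among the candidates of each library. The interzone's highest bin pair had 2.53 in the phalange but was no candidate there, with 8.30 expected pairs. The ranks of the 2 libraries are therefore not comparable.

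The lowest bin pairs were less far from expectation. In the interzone the lowest, 40480001 to 40510000 with 40810001 to 40840000, held 8 pairs, 0.584 times the expected number (0.252 to 1.15), and 0.723 in the phalange. The lowest 3 of the phalange all involved 40690001 to 40720000, at 0.582 to 0.647, where the interzone had 0.826 to 0.962. All 6 intervals of these lowest pairs in the library that ranked them reached above 1.

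The libraries were compared bin pair by bin pair by Fisher's exact test (two-sided), which set the listed pairs of a bin pair against those of all other bin pairs equally far apart. Benjamini-Hochberg adjustment ran over the 1697 bin pairs of the locus with at least 20 listed pairs. The test compares 2 libraries and not 2 tissues. Of the 246 bin pairs of the flank, 1 passed an adjusted p of 0.05 (0.407%), beside a background of 0.118% of bin pairs over the locus (2 of 1697). The flank's call is 1 of those 2. At an unadjusted p under 0.05 there were 12 in the flank, 4.88% of its bin pairs, against 4.60% over the locus, with 6 higher in each library. At the unadjusted threshold the flank's share was near the background, and 1 adjusted call is too few for a comparison of shares. The log2 ratio of interzone over phalange ran from -1.60 to 1.89 in the flank, with a median size of 0.27 against 0.31 over the locus.

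The bin pair that passed was the highest contact of the phalange, 40630001 to 40660000 with 40750001 to 40780000. It held 37 of 1924 phalange pairs at its bin distance (1.92%) and 21 of 3293 interzone pairs (0.638%), a log2 ratio of -1.60 with an adjusted p of 0.0402 by Fisher's exact test. It was not carried by a few fragments. The 37 phalange pairs used 26 of the 63 fragments on the left and 21 of the 39 on the right, and no fragment had more than 4. Only 2 pairs were in both lists. Within it, 8 phalange pairs joined 40650001 to 40660000 with 40760001 to 40770000 and 7 joined 40640001 to 40650000 with the same bin, where the interzone had 1 and 3. In other 10 kb bin pairs the interzone held more than the phalange. It had 3 against 1 for 40650001 with 40750001, 4 against 3 for 40650001 with 40770001, and 3 against 2 for 40630001 with 40770001. None of the 8 bin pairs of 30 kb around the called one passed, and their log2 ratios lay between -0.73 and -0.01. Both bins of the called bin pair met the flank as a whole at higher ratios in the phalange than in the interzone. So did the flank with itself, at 1.43 against 1.35. The totals of both bins include the called bin pair. The left bin had 1.25 against 1.05 and the right bin 1.95 against 1.46. The test matched bin distance and not such bin totals. The call was lost, at an adjusted p of 0.0871, when bin pairs with at least 10 listed pairs were tested, and at 0.0748 when pairs under 20 kb were left out. The bin pair's log2 ratio was -1.60 in both settings, and what changed was the other bin pairs in the adjustment. Bins of 10 kb and of 69 kb gave 0 calls in the flank.

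Of the other named differences none passed. Toward the interzone the largest was 40180001 to 40210000 with 40720001 to 40750000, 540 kb apart, with 18 interzone and 3 phalange pairs (log2 ratio 1.89, Fisher's exact test adjusted p = 0.911). The next 2 held 18 against 4 and 20 against 5 pairs, with log2 ratios of 1.34 and 1.33. Toward the phalange, 40180001 to 40210000 with 40630001 to 40660000 held 8 interzone and 14 phalange pairs (log2 ratio -1.37), and 40540001 to 40570000 with 40780001 to 40810000 held 14 and 21 (-1.29).

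Within the flank, contact across each position was scored as the listed share of pairs in a 100 kb diamond, as log2 over the locus median. The score could be taken from 100 kb inside the left end onward. It was above the locus median over most of the flank, with a median of 0.30 in both libraries and maxima of 0.62 for the interzone and 0.65 for the phalange. Scores of the libraries followed each other across 60 overlapping, dependent positions (Pearson's r 0.75, Spearman's rho 0.68).

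The most prominent inner minimum lay at nearly the same place in both libraries. It was at 40610000 in the interzone, with a score of -0.06 and a prominence of 0.53, and at 40600000 in the phalange, with a score of 0.02 and a prominence of 0.60. Of the 4 interzone and 3 phalange minima with a prominence of at least 0.1, this was the only one within 10 kb of a minimum of the other library. A second lay at 40410000 in the interzone (prominence 0.35) and at 40440000 in the phalange (0.45), 30 kb apart. The remaining minima, at 40280000 and 40800000 for the interzone and 40750000 for the phalange, had prominences of 0.10 to 0.12. The one at 40800000 had the lowest score of the interzone's 4, at -0.11. The number of minima depended on the diamond and the measure, while a minimum between 40600000 and 40620000 was present in all 5 alternatives tried in each library. Not all 5 could have removed it. A required prominence of 0.2 lay below its 0.53 and 0.60. Summed signal and a 50 kb diamond gave 12 and 10 minima per library, so a minimum near there says little. With a 200 kb diamond its prominence fell to 0.14 for the interzone and 0.12 for the phalange. Leaving out thinly covered bins gave 0.53 and 0.55.

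**Figure D4:**
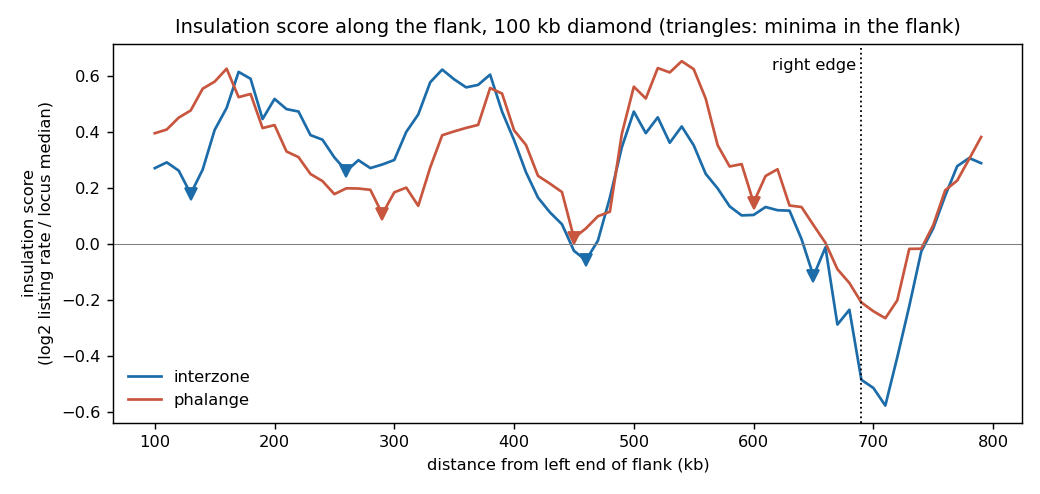
Insulation score (log2 listed share in a 100 kb diamond over the locus median) against distance from the left end of the flank in kb, with triangles at minima of prominence 0.1 or more in the flank and a dotted line at its right edge. Both curves dip at 450 to 460 kb and fall to their lowest at 710 kb, just past the edge.

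The dip at 40600000 to 40610000 was shallow by pair numbers. With the flank divided at 40610000, pairs 100 to 200 kb apart were listed at 1.44 times expectation in the left part, 1.16 in the right part and 1.12 (1.01 to 1.23) between the parts in the interzone. In the phalange the values were 1.40, 1.60 and 1.16 (1.02 to 1.31). At 20 to 100 kb the ratio between the parts was 1.24 for the interzone and 1.56 for the phalange, above the 1.40 in the right part in the phalange. With fragment length matched this excess of the phalange was gone, at 1.22 between the parts, 1.22 in the right part and 1.25 in the left part. In the interzone the matched ratio at this distance was lower between the parts, at 1.04, than in the right part (1.16) and the left part (1.24). At 100 to 200 kb the length-matched ratio between the parts was 1.05 for the interzone and 1.04 for the phalange. The interzone's right part was then lower, at 0.998, and its left part higher, at 1.29. In the phalange each part stayed higher. Contacts between the parts were therefore still at or above expectation. The division was chosen after the scores had been seen.

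At the right edge the score fell to -0.48 for the interzone and -0.21 for the phalange, and it was lowest at 40860000 in both, at -0.58 and -0.26. The last 30 kb bin inside the flank met the flank at 1.17 times expectation for the interzone and 1.20 for the phalange, and met the next segment at 0.917 and 1.13. The first bin outside, 40840001 to 40870000, met the flank at 0.900 and 1.03 and the next segment at 1.11 and 1.47. With fragment length matched, the last bin inside met the flank at 0.931 and 0.900 and the next segment at 0.703 and 0.813, and the first bin outside met the flank at 0.739 and 0.797 and the next segment at 0.903 and 1.12. Length matching thus took the last bin's ratio with the flank below 1 in both libraries, and each bin still met its own side of the edge at the higher ratio. These values lie on either side of the edge that chose the members.

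Contacts that left the flank were fewer than distance accounts for. At 20 kb or more, 9121 pairs joined the flank to the rest of the locus in the interzone, 0.904 times the expected number (0.886 to 0.923), and 6699 in the phalange, 0.945 times (0.923 to 0.968). Pairs farther apart than the flank's right edge is from the end of the locus can only start in the flank. They are their own expectation, which pulls both ratios toward 1. Matched for length the ratios were 0.867 and 0.896. Each of the 23 bins met the flank at a higher ratio than it met the rest of the locus, in both libraries. The ratio with the rest of the locus was not below 1 in each bin. It was below 1 in 17 of the 23 bins for the interzone and 13 for the phalange, with maxima of 1.20 and 1.32.

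The deficit was not even along the locus. The rest of the locus was divided at its other boundaries into 6 segments, numbered 2 to 7 from left to right. With the adjoining segment, 40840001 to 41230000, the ratio was 0.829 in the interzone (0.795 to 0.863) and 0.928 in the phalange (0.884 to 0.973). With the next, up to 41630000, it was lowest, at 0.741 (0.706 to 0.777) and 0.747 (0.705 to 0.789). It was 0.838 and 0.907 with segment 4, 1.13 and 1.11 with segment 5 (41950001 to 42300000), 1.12 and 1.17 with segment 6 and 1.01 and 0.990 with segment 7. The flank thus met segments 5 and 6, more than 1 Mb away, at a higher ratio than it met its neighbours. The farther apart fragments lie, the more of the pairs behind their expectation belong to the flank itself. The ratio with segment 7, and in part that with segment 6, was therefore held toward 1 by construction. It cannot be read like the ratios with nearer segments.

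Fragment length differed between the segments. Segment 3 had the shortest fragments, with a median of 265 bp, and segments 5 and 6 had medians of 353 and 355 bp. With length matched, the ratio was 0.727 for the interzone and 0.786 for the phalange with segment 2, 0.789 and 0.804 with segment 3, and 0.856 and 0.932 with segment 4. It was 1.04 and 1.00 with segment 5, 1.04 and 1.06 with segment 6 and 0.990 and 0.967 with segment 7. The values above 1 shrank to near 1, while those with segments 2, 3 and 4 stayed below it, and the adjoining segment became the lowest. The expectation still included the flank's own farthest pairs.

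**Figure D5:**
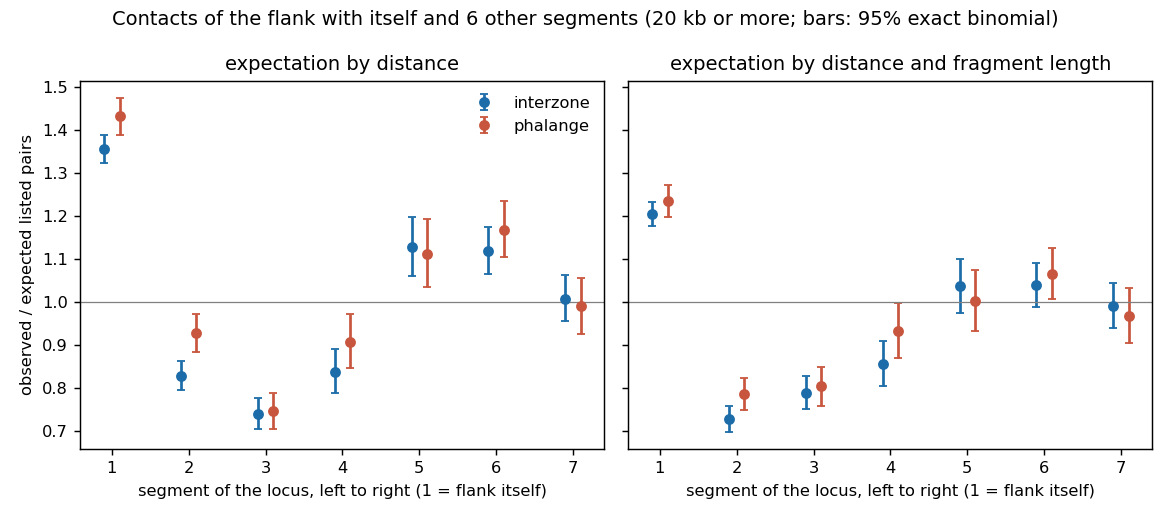
Observed over expected listed pairs at 20 kb or more between the flank and itself (segment 1) and the 6 other segments of the locus, with 95% exact binomial intervals, for an expectation by distance (left) and by distance and fragment length (right). In both panels the flank's contacts with itself are the highest; the lowest are those with segment 3 on the left (0.741 and 0.747) and with segment 2 on the right (0.727 and 0.786).

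By listed pairs, the flank had the second highest ratio of contacts within itself among the 7 segments in both libraries. Segment 2 was higher, at 1.45 for the interzone and 1.60 for the phalange, and the other 5 lay between 0.835 and 1.13 in the interzone and between 0.751 and 1.19 in the phalange. By summed signal the flank had 1.24 and 1.24, below both segment 2 (1.29 and 1.36) and segment 4 in each library. Segment 4 had 1.27 and 1.60 by signal, against 0.890 and 0.850 by listed pairs. With length matched, by listed pairs, the flank's 1.20 and 1.23 again came after segment 2, at 1.25 and 1.32. The right flank of the locus, of nearly the same length and likewise at an end of the captured region, had 0.871 and 0.813, and 0.867 and 0.812 with length matched. The segments were cut at minima in these libraries, so their ratios are descriptions and their differences were not tested.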

How the data were processed

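The authors deposited 1 list of ApoI fragment pairs per tissue, each pair with a signal, a value without a unit whose normalization, duplicate removal and filters are not given in the sources used here. BWA, FastQC and the build galGal5 are named, without role or version, per the submitters' processing notes. The phalange list has no header, and its columns were read in the order of the interzone list.

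Fragments of both lists were numbered by start. Adjacent pairs were left out. Expectations used the listed share of possible pairs per distance class, 10 kb wide from 20 kb on and 1 kb wide below, over the whole locus. The length-matched expectation multiplied this by a factor per pair of 6 length classes. Log2 ratios of Fisher's exact test used a pseudocount of 0.5. Code was run in Python 3.11.15 with numpy 2.4.6, scipy 1.17.1 and pandas 2.3.3, and was tested on simulated lists.

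The members, the rules and the tests were chosen with earlier results of these data known. Named bin pairs were the 5 highest and 3 lowest ratios per library at 90 kb or more with at least 10 expected pairs, and the 3 largest and 3 smallest log2 ratios tested; named fragments were the 5 with most partners, and named minima the 3 most prominent per library. The fourth interzone minimum, at 40800000, was named after its value was seen. The 5 highest signals, the edge bins and the division of the flank were chosen after the values were seen. No sequence of galGal5 was used here, so none is printed.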

Additional observations from a re-analysis of the deposited data

Results flagged for a closer look

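Adjacent fragments, which the comparisons left out, carried most of the signal of the flank. They held 89.6% of all flank signal in the interzone, in 1143 pairs with a median signal of 0.0797, and 89.0% in the phalange, in 1142 pairs with a median of 0.1002. Over the whole locus the shares were 87.4% and 87.0%. They were singled out as signal outside the main measurement. The study has no control library to set them against, and whether they are ligated ends or uncut DNA was not tested.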

How the results depend on the processing

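The ratio of listed to expected pairs in the flank stayed above 1 under all 9 alternatives, from 1.05 to 1.43 in the interzone and from 1.05 to 1.52 in the phalange. In the interzone and the phalange in turn, it was 1.43 and 1.52 with the expectation from all pairs not wholly in the flank. Those include the pairs leaving the flank, which were fewer than distance accounts for. The ratio was 1.06 and 1.11 with an expectation per 10 kb bin pair and 1.24 and 1.24 by summed signal. It was 1.25 and 1.24 by signal without the highest 0.1% of pairs, and 1.32 and 1.35 over all non-adjacent pairs. It was 1.05 and 1.05 scaled by bin totals and 1.20 and 1.23 with fragment length matched. The size of the excess therefore depends on how the fragments are counted. The ratio of contacts leaving the flank moved from 0.904 to 0.883 by signal, 0.813 scaled by bin totals and 0.867 with length matched in the interzone, and from 0.945 to 0.822 scaled by bin totals and 0.896 with length matched in the phalange. The slopes stayed within their regression intervals under the 3 alternatives run.

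The flank's calls between the libraries numbered 0 with 10 kb bins (3 of 183 at an unadjusted p under 0.05), 0 with 69 kb bins (6 of 55), 0 with a minimum of 10 listed pairs (13 of 273) and 0 without pairs under 20 kb (14 of 223). Against all other listed pairs 1 passed, the bin 40630001 to 40660000 with itself, while the bin pair named in the report had an adjusted p of 0.0696 by Fisher's exact test. Over its alternatives that bin pair's adjusted p ran from 0.0176 to 0.0871. The number of insulation minima was 12 in each library by signal and 10 in each with a 50 kb diamond. In the interzone it was 2 with a 200 kb diamond and 2 at a prominence of 0.2. The cause was not tested. Length matching and the removal of pairs under 20 kb from the Fisher test were chosen after seeing the data. No paired analysis was possible because each tissue has 1 library, and no library could be left out.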
